A study of Rattus norvegicus with 6 samples.

Results

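The first 6000000 positions of rat chromosome 20 (assembly rn5) were examined in libraries of reduced representation bisulfite sequencing (RRBS). The members were the cytosines in CpG context, called CpG sites below, that had a start position from 1 to 6000000 and 10 or more reads in both RRBS libraries. There were 3092 such sites of 1215420 over all chromosomes, and 36398 sites on the rest of chromosome 20. This stretch will be called the chromosome 20 start.

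The tissue was the hippocampus of Sprague-Dawley rats aged 7 weeks. The B[a]P library came from treatment with benzo[a]pyrene, a polycyclic aromatic hydrocarbon found in smoke and charred food, at 2.0 mg/kg each day by gavage in corn oil. The control library came from treatment with the same volume of corn oil. A duration of 7 weeks of gavage is given for the RNA libraries alone, and since it equals the stated age, whether that age is the age at sampling is not known. There was 1 RRBS library and 1 RNA-seq library per condition, and no label says how many animals a library holds or whether the assays shared animals. Each comparison below is therefore one of 2 libraries, without a replicate check, and any p-value concerns the reads of those libraries and not the conditions. No marker of a tissue can be read from the RRBS tables. In the RNA libraries the dentate granule neuron gene Prox1 was at 10.5 FPKM (B[a]P) and 8.15 FPKM (control), and Slc17a7, which encodes a vesicular glutamate transporter of excitatory neurons, was at 399 and 360 FPKM.

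The major histocompatibility complex of the rat is called RT1 and lies near one end of chromosome 20. Its class I genes encode proteins that present peptides from inside the cell to cytotoxic T cells, or, for the class Ib genes, serve more specialised immune roles. The complex is gene-dense, and its class I genes differ in number and sequence between haplotypes. A methyl group on the cytosine of a CpG is common over most of the mammalian genome and is largely absent from CpG islands at active promoters, and RRBS reads mainly CpG-rich fragments cut by a restriction enzyme.

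No annotation of the rn5 build was used here. To find which genes the sites belong to, RefSeq promoter sequences of assembly GRCr8, each running from 250 bases before to 50 bases after a gene's start, were matched to the pattern of cytosines and their contexts on rn5 chromosome 20. Of 968 such sequences, 266 matched 1 place, and 262 of these matched in every cytosine observed. In the chromosome 20 start 26 promoters of 24 genes were placed, from Tmlhe, an enzyme of carnitine synthesis, to Rxrb, a retinoid X receptor. RefSeq holds 42 promoters of RT1 genes on chromosome 20, of which 5 were placed. Those of RT1-CE16 and RT1-A3, both class I genes, were inside the chromosome 20 start. Those of RT1-CE5, RT1-CE3 and RT1-A2 were past its end, at positions 6973085, 7011466 and 7433182, and so was that of Tap1, the peptide transporter of the class I pathway, at 6058599. The name RT1 thus holds in part, since the stretch ends inside the complex. Between placed promoters, the GRCr8 gene order has further class I genes whose promoters were not placed. There were 4 RT1-M entries between Gabbr1 and Ppp1r11, 10 between Ppp1r11 and Rpp21, and 18 RT1 entries between Rpp21 and LOC134483848, among them RT1-N2, RT1-S3 and RT1-T24-3. Of the 105 entries between Tmlhe and Gabbr1, 84 were olfactory receptor genes. The first 19 placed promoters had the strand and order of GRCr8, up to position 5876470, and the last 7, from 5878496, lay on the opposite strand in the reverse order.

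Promoter sequences are shown for 5 genes: both RT1 genes inside the stretch, a neuronal receptor gene and a nuclear receptor gene with low promoter levels, and a long non-coding RNA with high ones. They are RefSeq sequences of GRCr8 from 5′ to 3′ along the gene, with the rn5 place found by the match, and capitals mark CpGs read in both libraries on either strand. The capital C that ends the Gabbr1 sequence has its G outside the window.
RT1-A3 (chr20:5878706-5879005, minus strand): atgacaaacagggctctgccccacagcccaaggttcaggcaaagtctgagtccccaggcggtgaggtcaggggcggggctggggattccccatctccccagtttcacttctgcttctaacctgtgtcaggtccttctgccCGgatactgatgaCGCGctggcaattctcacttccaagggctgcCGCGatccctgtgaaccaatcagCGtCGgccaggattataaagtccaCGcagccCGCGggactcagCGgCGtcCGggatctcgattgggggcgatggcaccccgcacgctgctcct
RT1-CE16 (chr20:5876470-5876769, minus strand): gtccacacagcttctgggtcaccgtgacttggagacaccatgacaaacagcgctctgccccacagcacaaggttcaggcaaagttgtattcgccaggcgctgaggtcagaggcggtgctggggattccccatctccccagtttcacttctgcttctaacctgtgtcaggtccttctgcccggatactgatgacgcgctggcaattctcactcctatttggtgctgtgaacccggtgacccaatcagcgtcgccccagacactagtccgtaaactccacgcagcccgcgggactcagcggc
Gabbr1 (chr20:4025377-4025676, minus strand): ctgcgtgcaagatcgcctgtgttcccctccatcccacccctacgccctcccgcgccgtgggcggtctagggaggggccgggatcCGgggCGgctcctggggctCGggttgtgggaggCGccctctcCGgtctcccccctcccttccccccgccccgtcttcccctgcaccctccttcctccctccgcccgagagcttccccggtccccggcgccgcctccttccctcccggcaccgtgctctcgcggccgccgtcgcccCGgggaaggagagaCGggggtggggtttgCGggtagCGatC
Rxrb (chr20:5902268-5902567, plus strand): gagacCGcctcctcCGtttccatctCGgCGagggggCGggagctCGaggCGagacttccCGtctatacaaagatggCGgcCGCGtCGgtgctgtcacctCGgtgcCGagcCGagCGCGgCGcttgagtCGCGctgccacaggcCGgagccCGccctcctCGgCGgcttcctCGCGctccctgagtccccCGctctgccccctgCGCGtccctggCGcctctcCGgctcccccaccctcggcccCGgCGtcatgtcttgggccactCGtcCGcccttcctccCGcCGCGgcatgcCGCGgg
LOC134483848 (chr20:5363768-5364067, plus strand): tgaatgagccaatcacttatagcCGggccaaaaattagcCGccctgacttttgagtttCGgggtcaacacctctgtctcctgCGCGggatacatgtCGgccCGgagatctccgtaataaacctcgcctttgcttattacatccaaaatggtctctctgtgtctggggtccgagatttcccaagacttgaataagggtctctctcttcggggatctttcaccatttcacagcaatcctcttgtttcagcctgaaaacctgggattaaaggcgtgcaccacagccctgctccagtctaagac
The RT1-A3 sequence holds 19 CpGs, 13 of them read in both libraries, and Rxrb 41 CpGs with 40 read. RT1-CE16 holds 16 CpGs, of which 0 were read in both libraries, so no level can be given for its promoter. Gabbr1 holds 32 whole CpGs, with 10 read when the CpG cut by the window's end is counted, and LOC134483848 12 with 7 read. Searched on both strands, GGGATTCCC, letters of the NF-kappaB site known from class I promoters, occurred 1 time each in RT1-A3 and RT1-CE16, and in 0.365% of all 33469 RefSeq promoters of this length. CCAAT occurred 2 times in RT1-A3 and 1 time in RT1-CE16 (37.5% of all promoters hold it). GGGCGG, the core of a GC box, occurred 1 time in RT1-A3, 0 times in RT1-CE16, 4 times in Gabbr1 and 3 times in Rxrb (33.1% of all promoters). No match overlapped another, and a match describes letters and not a bound site.

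Methylation of the chromosome 20 start was nearly the same in both libraries. The mean level over its 3092 CpG sites was 24.4% in the B[a]P library and 24.2% in the control library, a difference of 0.29 percentage points beside a standard deviation across sites of 37.1 and 36.8. The median level was 1.51% and 1.42%. A site was read a median of 59 times (B[a]P) and 67 times (control), with at least 10 reads by the rule, so that 1 read moves the level of the shallowest sites by 10 points. The difference between the libraries was within 10 points at 93.4% of sites, beside 91.7% of sites over all chromosomes. Across sites the levels had a Pearson correlation of 0.988, beside 0.986 over all chromosomes. It is a description, since neighbouring sites share reads and both libraries share the sites' base composition.

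Most sites were at one or the other extreme. In the B[a]P library 67.7% of sites were at 10% or less, 4.98% between 10 and 35%, 4.88% between 35 and 65%, 9.28% between 65 and 90%, and 13.1% above 90%. The control library gave 67.5%, 5.37%, 4.98%, 9.35% and 12.8% for the same classes. Intermediate sites, between 35 and 65%, numbered 151 and 154, and 108 of them were intermediate in both libraries. In all, 2783 sites (90.01%) were in the same class in both libraries, against 85.5% of sites on the rest of the chromosome. The rest had a smaller share of sites at 10% or less, and these shares were not compared at equal levels.

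The rest of chromosome 20 was methylated at a higher mean level, 32.9% in the B[a]P library and 32.4% in the control library, with 55.6% and 55.9% of sites at 10% or less. On the other chromosomes the means were 25.8% (B[a]P) and 25.5% (control), with 64.8% and 65.1% of sites at 10% or less. These values are nearer to those of the chromosome 20 start. The difference between the start and the rest of chromosome 20 was present in each library. It was not tested, since sites are not replicates, and it turned round when the stretch was ended at 5000000: the mean was then 34.1% against 32.2% for the rest in the B[a]P library, and 33.9% against 31.7% in the control library. The level also varied along the stretch. Sites of the first 1 Mb window, 258 in number, had means of 49.6% (B[a]P) and 49.5% (control). The next window held 13 sites at 85.8% and 88.6%, the third held no site, and the fourth 27 sites at 24.9% and 22.2%. The fifth held 651 sites at 27.3% and 27.1%, and the sixth, with 2143 sites the bulk of the stretch, had the lowest means, 20.2% and 19.8%.

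**Figure D1:**
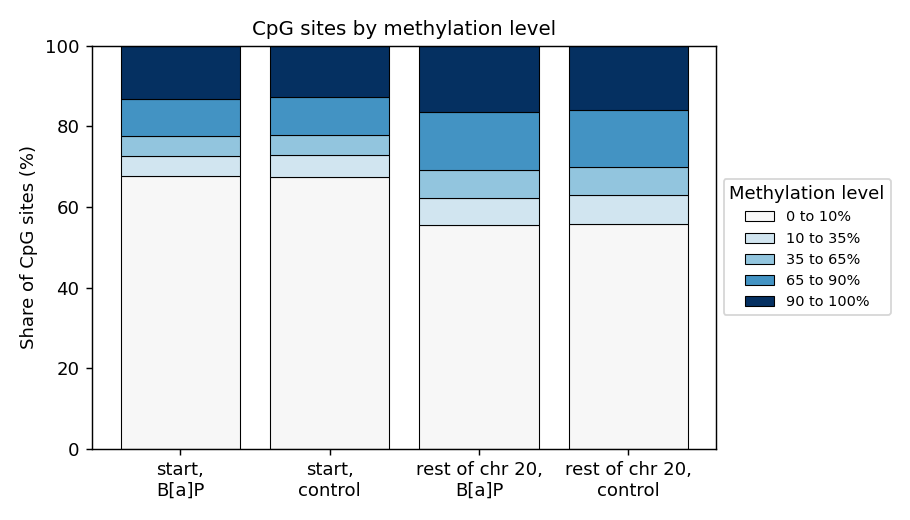
Share of CpG sites (vertical axis, %) in 5 classes of methylation level, stacked for each RRBS library of the chromosome 20 start and of the rest of chromosome 20. The lowest class takes 67.7% and 67.5% of sites at the start and 55.6% and 55.9% in the rest, and the bars of both libraries nearly match.

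Promoters placed on the chromosome 20 start were almost all unmethylated in both libraries. Of 23 promoters with 3 or more shared CpG sites, 20 (87.0%) had a mean at 10% or less in both libraries, against 207 of 226 (91.6%) on the rest of the chromosome. Some promoter windows overlap and share sites. The means of these 20 ran from 0.561 to 3.13% (B[a]P) and from 0.316 to 2.49% (control), and the largest difference of means was 1.47 points. The CpG sites inside placed promoters, 502 of the 3092, had means of 3.74% and 3.46%, and 94.2% of them were at 10% or less in both libraries. The 2590 other sites had means of 28.5% and 28.2%.

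The class I promoter that could be read, that of RT1-A3, had 23 CpG sites (cytosines of both strands of the CpGs printed above) with means of 0.807% (B[a]P) and 0.751% (control). Its highest site was 5.68% and 5.38%, and its largest difference at a site was 5 points. The other strand, 9 bases from the RT1-A3 start, carries the start of the long non-coding RNA LOC120098897, whose promoter window overlaps that of RT1-A3 in part and had means of 1.44% and 2.24% over 36 sites. Past the end of the stretch, the means were 0% and 0.913% over 22 sites for RT1-CE5, 1.77% and 1.78% over 28 sites for RT1-CE3, and 0.876% and 1.13% over 19 sites for RT1-A2. Median reads per site were only 12 (B[a]P) and 20.5 (control) for RT1-CE5, against 208 and 229.5 for RT1-CE3 and 124 and 69 for RT1-A2. All 4 class I promoters with a level were thus below 2% in both libraries. The aligner is not given, so how reads of near-identical class I copies were assigned is not known.

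Among genes of the framework around the class I genes, the promoter of Gnl1, a GTP-binding protein, had means of 1.14% and 0.829% over 75 sites. Its neighbour Prr3 had 0.641% and 0.450% over 16 sites. Ppp1r10, a nuclear regulator of protein phosphatase 1, had 0.561% and 0.634% over 21 sites, and Ppp1r18, another protein phosphatase 1 subunit, 0.646% and 1.30% over 17. The splicing helicase gene Dhx16 had 0.876% and 0.316% over 26 sites, and Rpp21, a subunit of ribonuclease P, 2.78% and 2.39% over 17 sites. Tubb5, a beta tubulin, had 0.988% and 0.662% over 31 sites, Flot1, a membrane raft protein, 2.40% and 1.19% over 19, and 1 of the 2 placed promoters of Ddr1, a collagen receptor kinase, 1.89% and 2.46% over 22. These promoters all stood near 0 in both libraries.

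The genes on the class II side at the end of the stretch were as low. Ring1, a Polycomb ubiquitin ligase, had means of 1.09% and 0.699% over 29 sites. Hsd17b8, an enzyme of mitochondrial fatty acid synthesis, had 1.08% and 0.942% over 23 sites. The 2 promoter windows of the zinc transporter Slc39a7 overlap each other and that of Rxrb, so they share sites. They had 1.04% and 1.004% over 43 sites, and 0.936% and 0.855% over 52. Rxrb had 0.668% and 0.664% over 78 sites, with a highest site of 11.8% (B[a]P) and 8.58% (control). Gabbr1, which encodes a subunit of the GABA-B receptor and lies on the class I side, had 1.84% and 2.49% over 13 sites, with its highest site at 12.5% and 18.4%. It and the next 3 are named outside the rule for named promoters, after their values were seen.

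The remaining 3 promoters were long non-coding RNAs with high levels in both libraries. LOC134483848 had means of 72.9% (B[a]P) and 66.9% (control) over 12 sites, spread from 35.7 to 93.1% and from 23.5 to 94.4%. It held the largest difference at a promoter site, 30.04 points, at a median depth of 28.5 and 26.5 reads, and this site did not pass the test described below. LOC134483850 had 71.4% and 70.0%, and CB741658 66.1% and 64.1%, each over 3 sites. LOC134483848 has 12 CpGs in its 300 bases, as many as the low promoter of Rpp21, while LOC134483850 has 9 and CB741658 has 6.

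**Figure D2:**
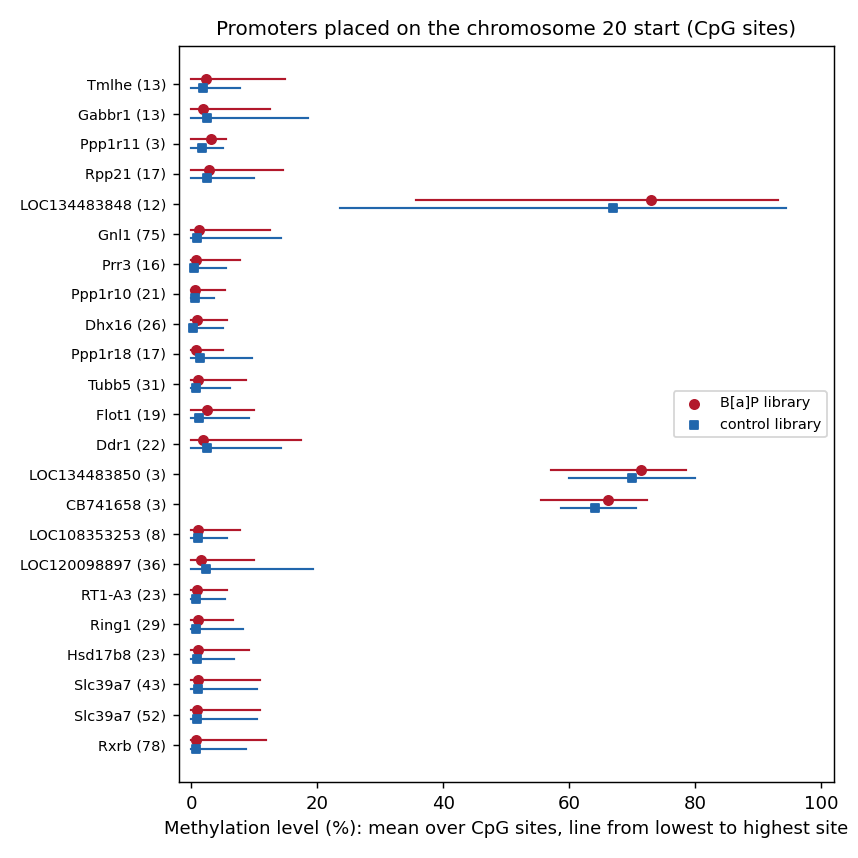
Methylation level (horizontal axis, %) of the 23 promoters with 3 or more shared CpG sites, in chromosome order, with the number of sites in parentheses. Markers are means over sites and lines run from the lowest to the highest site of the B[a]P library (red circles) and the control library (blue squares). The 3 promoters far to the right are LOC134483848, LOC134483850 and CB741658, at 64.1 to 72.9%.

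Differences between the libraries were few. Sites were called with Fisher's exact test, 2-sided, on methylated and unmethylated reads, at a Benjamini-Hochberg adjusted p under 0.05 over all 1215420 sites and a difference of 25 percentage points or more. Of the 3092 sites, 6 were called (0.194%), beside 0.148% of all sites tested and 0.121% (44 sites) on the rest of chromosome 20. The level was higher with B[a]P at 2 of them (background 0.0691%) and lower at 4 (background 0.0784%). At an unadjusted p under 0.05 there were 65 sites (2.10%), beside 2.49% of all sites. The share called moved with the setting: it was 0.291% against 0.121% for the rest at a minimum of 30 reads in both libraries, and 0.316% against 0.122% with the stretch ended at 5000000. At a minimum of 50 reads, added after the data were seen, it was 0.294% against 0.0807%. These shares rest on 3 to 6 called sites, and no difference from the rest of the chromosome was tested. All-or-nothing sites, at 10% or less in one library and 90% or more in the other, are of interest here because the RT1 complex differs between haplotypes. There was 1 in the chromosome 20 start (0.0323%), beside 0.0132% of all sites and 7 (0.0192%) on the rest of the chromosome. At limits of 5 and 95% there were 0 in the chromosome 20 start, beside 0.00824% of sites on the rest. With a count of 1, the share is no more precise than that count, and whether the animals carried different haplotypes was not tested. Of 133 tiles of 1000 bp with 5 or more sites, 0 held 3 or more called sites (background 0.118%) and 4 held 1, and the largest difference of tile means was 10.2 points.

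**Figure D3:**
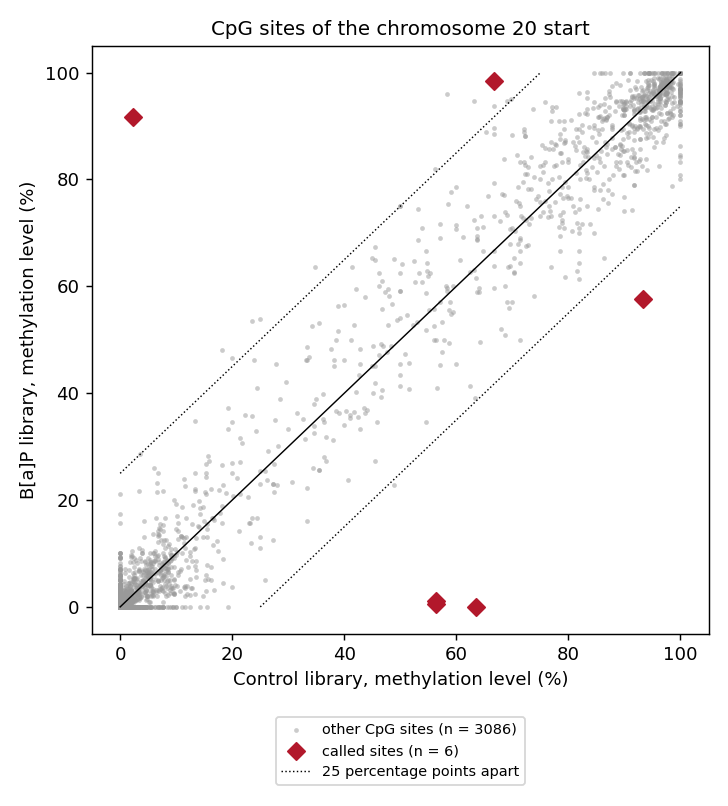
Methylation level of each CpG site of the chromosome 20 start in the control library (horizontal axis, %) and the B[a]P library (vertical axis, %), with the line of equal levels and dotted lines 25 points from it. The 6 called sites (red diamonds) stand apart from 3086 other sites, and 1 of them, at 2.25% and 91.7%, is in the all-or-nothing corner.

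The site with the largest difference, at position 4647469, was the all-or-nothing one. It was methylated in 99 of 108 reads of the B[a]P library, 91.7% (95% exact Clopper-Pearson interval 84.8 to 96.1%), and in 2 of 89 reads of the control library, 2.25% (0.273 to 7.88%). The difference was 89.4 points (adjusted p = 1.37e-38 by Fisher's exact test). Reads here carry no molecular identifiers, so these intervals cover counting error only. The 10 other CpG sites within 100 bp were highly methylated in both libraries, from 93.5 to 100% (B[a]P) and from 77.0 to 98.9% (control), with a largest difference of 16.5 points. The control library's low level was at this single cytosine, among high neighbours 4 bases after it and 9 bases before it. It lies between the placed promoters of Rpp21, 101877 bp before, and LOC134483848, 716549 bp after, in the stretch where GRCr8 has class Ib genes.

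Near the start of the chromosome, the site at 196831 was methylated in 0 of 31 reads of the B[a]P library (0 to 11.2%) and in 33 of 52 reads, 63.5% (49.0 to 76.4%), of the control library. The difference was -63.5 points (adjusted p = 8.03e-07 by Fisher's exact test). Its 8 neighbours within 100 bp differed by at most 8.08 points, and 7 of them were high in both libraries. The site lies 34457 bp before the Tmlhe start. On the other side of that start, 8238 bp after it, the site at 239526 was methylated in 124 of 126 reads of the B[a]P library, 98.4% (94.4 to 99.8%), and in 24 of 36 reads of the control library, 66.7% (49.0 to 81.4%). The difference was 31.7 points (adjusted p = 1.60e-04 by Fisher's exact test), with 13 neighbours that differed by at most 6.75 points.

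A pair of called sites lay close together, though more than 100 bp apart. At 5861931 the B[a]P library had 1 methylated read of 171, 0.585% (0.0148 to 3.22%), and the control library 57 of 101, 56.4% (46.2 to 66.3%), an adjusted p of 8.61e-26 by Fisher's exact test. At 5862034 the B[a]P library had 2 of 173, 1.16% (0.140 to 4.11%), and the control library 58 of 103, 56.3% (46.2 to 66.1%), with an adjusted p of 8.25e-25 by the same exact test. The differences were -55.9 and -55.2 points. The CpG site between them was at 16.3% (B[a]P) and 16.8% (control), and one 12 bases after the second at 30.1% and 28.2%, so the levels around the pair nearly matched. They lie 14540 and 14437 bp before the start of LOC108353253, a long non-coding RNA.

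The last called site, at 5742088, had 75 methylated reads of 130 in the B[a]P library, 57.7% (48.7 to 66.3%), and 265 of 284 in the control library, 93.3% (89.7 to 95.9%). The difference was -35.6 points (adjusted p = 7.96e-14 by Fisher's exact test), and its 5 neighbours differed by at most 4.78 points. It lies 14809 bp after the CB741658 start. Of these 6 sites, 0 were inside a placed promoter.

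Within 100 bp, 0 of the 6 called sites had another called site. The pair at 5861931 and 5862034 lay just past this limit, so a slightly wider limit would change this count. Within the same limit, 26 of 44 called sites (59.1%) on the rest of chromosome 20 and 811 of 1727 (47.0%) on other chromosomes had no called neighbour. The median difference at neighbouring sites, as a median over called sites, was 2.59 points here, 6.52 points on the rest of the chromosome and 6.62 elsewhere. These measures were added after the values were seen, and no test was made of them. Both strands of a CpG are read from separate fragments. Of 764 CpGs with both strands read in both libraries, 4 differed by 25 points or more between strands in each library (0.524%), and 0 held a called site. The cytosine just before a called site was read in 1 library only for 3 sites. It was methylated in 13 of 14 B[a]P reads beside 4647469, in 6 of 14 B[a]P reads beside 5742088, and in 14 of 14 control reads beside 196831.

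**Figure D4:**
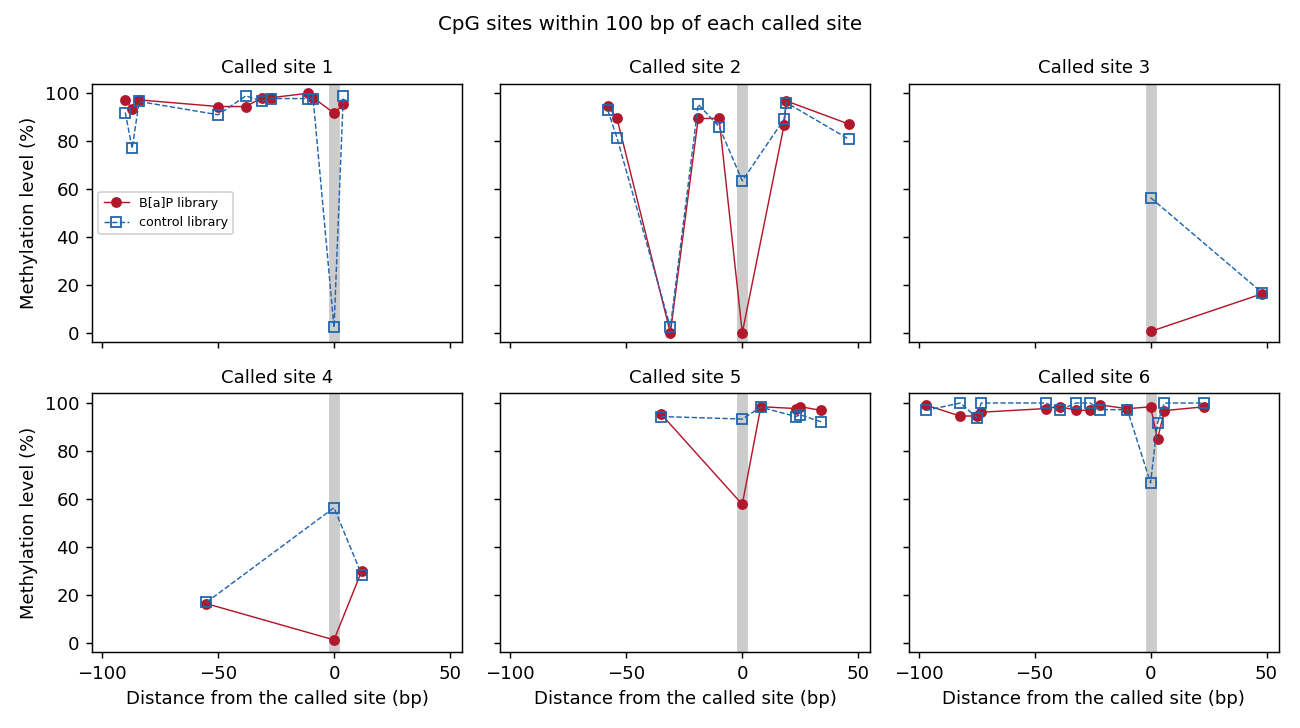
Methylation level (vertical axis, %) of the CpG sites within 100 bp of each of the 6 called sites, by distance from the called site (horizontal axis, bp), for the B[a]P library (red circles) and the control library (blue squares). Panels are ordered by the size of the difference, from 89.4 to 31.7 points. The libraries part at the called site (grey band) and nearly match at its neighbours, which differ by at most 16.5 points.

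A further 15 sites differed by 25 points or more without being called, 14 of them higher in the B[a]P library and 1 lower, with a largest difference of 37.7 points. Directions of such sites elsewhere were not counted, so whether this split is particular to the stretch is not known. The less deeply read library had a median of 19 reads at these 15 sites (highest 38), against 42 over all sites of the stretch. In total 21 sites (0.679%) differed by 25 points or more, against 446 (1.23%) on the rest of the chromosome and 1.01% on other chromosomes. The site at 5762222 passed the adjusted p alone: it was methylated in 221 of 322 reads, 68.6% (B[a]P), and in 239 of 450, 53.1% (control), a difference of 15.5 points with an adjusted p of 0.00985 by Fisher's exact test.

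By window, the called sites fell 2 in the first 1 Mb (0.775% of 258 sites), 1 in the fifth (0.154%) and 3 in the sixth (0.140%). The seventh window, where the complex goes on with Tap1, had 3 of 2419 (0.124%). On the rest of the chromosome 43 windows held 100 or more sites, of which 28 had 0 called and 9 had a larger share than the chromosome 20 start as a whole, up to 1.02% in the 18th window. The end of the stretch crosses a gap between measured sites. The last site inside, at 5974400, was at 79.6% (39 of 49 reads, B[a]P) and 71.9% (23 of 32, control), and the first outside, at 6052344, at 97.4% (75 of 77) and 100% (22 of 22).

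**Figure D5:**
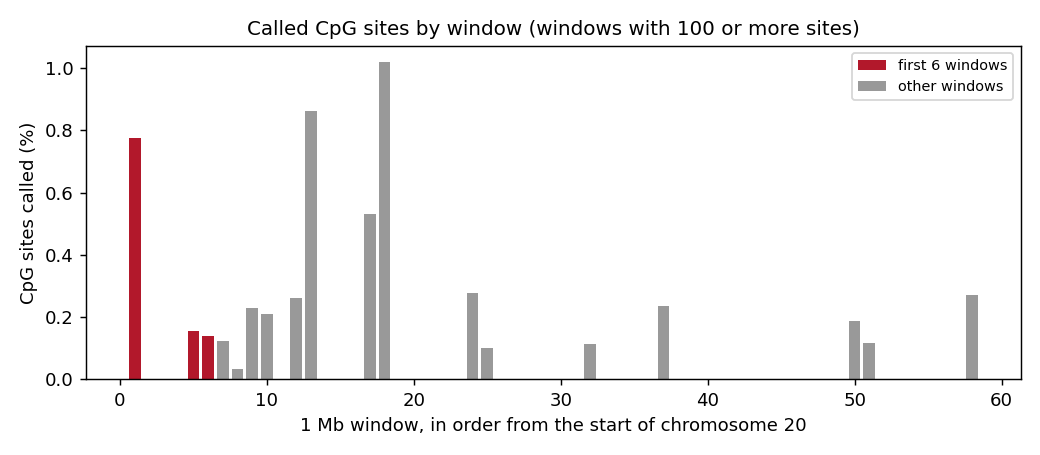
Share of CpG sites called (vertical axis, %) in each 1 Mb window of chromosome 20 with 100 or more sites (horizontal axis, window number from the start), with the windows of the chromosome 20 start in red. The first window stands at 0.775%, the fifth and sixth at 0.154 and 0.140%, and the highest window of the rest at 1.02%.

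Cytosines outside CpG context were nearly unmethylated. Over 10327 such cytosines of the chromosome 20 start the mean was 0.614% (B[a]P) and 0.683% (control). Of these, 0 were at 50% or more in one library and 10% or less in the other. A count of 0 would allow a share of up to 0.0291% (3 counts) if cytosines were independent, but neighbouring ones share reads. The share was 0.00591% of all non-CpG cytosines and 0.00766% of 143670 on the rest of the chromosome. At 50% or more there were 8 in each library, of which 7 were the same cytosines. Context here is the letter given with the counts, and whether the animals' own bases differed at these positions was not tested. There were 3 non-CpG cytosines that differed by 25 points or more. The cytosine at 5762161, in CHG context (H is any base but G), was methylated in 312 of 324 reads, 96.3% (93.6 to 98.1%), in the B[a]P library and in 218 of 450, 48.4% (43.7 to 53.2%), in the control library. All 6 CpG sites within 100 bp of it had a higher level with B[a]P, by 4.35 to 15.5 points, among them the site at 5762222. The CHG cytosine at 196829, 2 bases before the called site at 196831, was methylated in 14 of 14 B[a]P reads, 100% (76.8 to 100%), and in 27 of 46 control reads, 58.7% (43.2 to 73.0%). The third, in CHH context at 4542975, had 0 of 15 and 3 of 12 reads.

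RNA levels are set beside these values without a test. Of the 24 genes with a placed promoter, 16 were at 1 FPKM (read fragments per kilobase of transcript, scaled to library size) or more in either RNA library. Most of the others, among them RT1-CE16 and RT1-A3, had no RNA value, so their expression is not known. Among the 16, log2(FPKM + 1) ratios of B[a]P to control ran from -0.23 (Ddr1) to 0.48 (Tmlhe), with a median of 0.07. Of these 16 genes, 0 passed 2-fold, beside 0.671% of 13261 genes. Gabbr1 was at 128 FPKM (B[a]P) and 109 FPKM (control), Tubb5 at 196 and 175, and Rxrb at 12.7 and 12.3. Of a list of 185 genes of the whole complex and its flanks, 172 were found and 107 were at 1 FPKM or more, and the median log2 ratio of these was 0.04. By the log2(FPKM + 1) ratio 4 of the 107 passed 2-fold, beside 0.671% of all 13261 genes, and all 4 were class I. RT1-M6-2 was at 3.602 FPKM (B[a]P) and 1.29 FPKM (control), RT1-A2 at 0.314 and 6.05, RT1-CE5 at 0.716 and 3.93, and RT1-N2 at 0.291 and 2.11. The 107 held 11 class I genes, with a median log2 ratio of 0.09. The most expressed of the 11 did not pass: RT1-T24-4 was at 18.7 and 17.6 FPKM, and RT1-S3 at 15.9 and 16.1. Without the added 1, Cchcr1, which is not an RT1 gene, was also past 2-fold, at 0.757 and 1.64 FPKM. The RT1-A2 and RT1-CE5 promoters, given above, were below 2% in both libraries. Class I genes are near-identical copies, so the authors' counting could split or drop their reads, and fewer cells of a type and less RNA per cell cannot be told apart in such bulk tissue.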

How the data were processed

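RRBS libraries of hippocampal DNA (1 B[a]P, 1 control) were compared by site. Per the file headers, the authors deposited counts of methylated and unmethylated reads per cytosine, with the level in percent. The RNA tables were deposited by the authors without a stated unit and were taken as FPKM from their values. Tools and builds named in the submitters' processing notes are bcl2fastq, rn5 and rn6. Positions on chromosome 1 reach 290084085, past its end in rn6, so positions are read as rn5, as in the files' start column, whose base is not known. The aligner, the methylation caller and any duplicate removal are not given in the sources used here, and each could change a level. The deposited sites all have 10 reads or more.

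After 422 cytosines with a differing context were left out, 5628789 were joined by position, 1215420 of them CpG sites. Each strand's cytosine is 1 site. Fisher's exact test with the Benjamini-Hochberg adjustment was computed with numba 0.67.0 and scipy 1.17.1 in Python 3.11.15, and was tested on simulated data. With 1 library per condition, the tests compare the reads of those libraries. Promoters were placed where at least 25 observed cytosines matched in at least 98%, at 1 place on chromosome 20. RNA ratios used log2(FPKM + 1), which understates the change of low genes. The sites named are the called ones, and the promoters those of RT1 genes and the 15 others with the most sites, except where stated. The region, the gene list and these rules were chosen with earlier results of these data known.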

Additional observations from a re-analysis of the deposited data

Results flagged for a closer look

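A pair of cytosines labelled as outside CpG context, which the CpG comparison does not use, had high levels that differed between the libraries. Whether the animals carried other bases at or beside these positions was not tested. At 5762161 the level was 96.3% in the B[a]P library and 48.4% in the control library. At 196829 it was 100% in the B[a]P library, from 14 reads, and 58.7% in the control library.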

How the results depend on the processing

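The called count was 6, and 4 at a difference of 50 points. With the stretch ended at 5000000 it was 3 of 949 sites, and the share called rose from 0.194% to 0.316% and the all-or-nothing share from 0.0323% to 0.105%. The share called less that of the rest of chromosome 20, 0.0732 points, stayed above 0 in the alternatives run, from 0.0497 points at 50 points to 0.213 points at 50 reads. All-or-nothing sites numbered 0 at limits of 5 and 95%. The share of all-or-nothing sites less that of the rest, 0.0131 points, became -0.00824 points at 5 and 95% and -0.000627 points at 20 and 80%. The mean level in the B[a]P library was 22.5% at 20 reads, 20.6% at 30 reads, 26.4% with strands merged, 34.1% with the end at 5000000 and 20.8% weighted by reads. In the control library these were 22.4%, 20.5%, 26.1%, 33.9% and 18.8%, and 24.3% without sites over 500 reads. Genes of the complex past 2-fold fell from 4 to 1 with a floor of 5 FPKM. They numbered 5 when 0.1 in place of 1 was added to the FPKM. A minimum of 50 reads, chosen after seeing the data, gave 4 called sites, 0.294% against 0.0807% on the rest. The cause of these changes was not tested. No paired analysis was possible because each condition had 1 library. Counting error limits sites near 10 reads.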

Other observations

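CpG sites with 10 reads in 1 library alone were outside the rule. In the chromosome 20 start there were 623 of 3715 such sites (16.8%) in the B[a]P library, with a mean level of 39.7% and a median of 17 reads, and 145 of 3237 (4.48%) in the control library, with a mean of 29.9% and a median of 18 reads. On the rest of chromosome 20 these shares were 16.6% and 3.38%.

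Of the 7 non-CpG cytosines at 50% or more in both libraries, the one at 256715 was at 100% in both. The one at 186555 was at 98.3% (B[a]P) and 96.9% (control), and the one at 5432684 at 93.9% and 100%.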
